A study of Tamarix ramosissima and Tamarix chinensis with 11 samples.

Results

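The genes described here are 158 assembled leaf genes of *Tamarix* that came from 74 assembly components in which some genes were higher and others lower under water deficit (WD). A component is the part of a Trinity identifier that its genes share, so that TRINITY_DN34180_c0_g1 and TRINITY_DN34180_c0_g2 are partner genes in TRINITY_DN34180_c0. The members were selected on their values in *T. chinensis*. Estimated counts were scaled by the total of their library to CPM, a relative abundance, and L is log2 of the mean WD CPM plus 1 over the mean control CPM plus 1. A component entered when 1 of its genes had an L of at least 1 and another an L of at most −1, with a mean CPM of at least 3 over the *T. chinensis* libraries and with every WD library of *T. chinensis* outside the range of its controls. This gave 80 members that were higher under WD in *T. chinensis*, here called raised members, and 78 that were lower, called lowered members, out of 117867 genes in 86595 components. Since the rule used the *T. chinensis* values, those are given as a description, and tests were made in *T. ramosissima*, whose libraries the rule did not use.

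RNA of whole leaf tissue was sequenced from seedlings of both species, grown from seed of established stands in New Mexico (*T. chinensis*) and Montana (*T. ramosissima*). TC_WD were *T. chinensis* plants without water and TC_C their well-watered controls, while TR_WD and TR_C were the same treatments of *T. ramosissima*. Each library came from 1 plant that was 14 weeks old when treatment began, with 3 libraries per group except TC_C, which had 2. Leaves were taken when WD plants wilted, on day 10 in *T. chinensis* and on day 17 in *T. ramosissima*, so that species and length of treatment cannot be told apart.

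An assembler such as Trinity builds transcripts from overlapping reads without a genome and puts contigs that share sequence into 1 component. The genes of 1 component can be alleles, duplicated genes, parts of 1 transcript or a gene joined to an unrelated one through a shared stretch, and the identifiers do not say which. Leaves that lose water close their stomata, build up abscisic acid, raise protective proteins and solutes and lower the genes of photosynthesis and growth. Members of a gene family often divide such roles, with 1 copy used in growth and another under stress.

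Libraries held 10245008 to 13086118 fragments in TC_WD, 11072277 and 15655257 in TC_C, 11221126 to 12480758 in TR_WD and 11794155 to 14011028 in TR_C. Members took between 0.559% and 0.894% of the fragments of a library. Libraries of the same group were not copies of each other, since their median chi-square over genes was 2.17 to 8.60, and sampling alone would give 0.455. In bulk leaf tissue, fewer cells of a type and less RNA per cell cannot be told apart. The identifiers carry no gene names, so the leaf label could not be checked against marker genes and no role can be given to a member.

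In *T. chinensis*, 1951 genes passed the raised thresholds and 2684 the lowered ones. Of the 436 components with at least 2 such genes, 150 held raised genes alone, 212 held lowered genes alone and 74 (17.0%) held both. Opposing genes were found in 16 of 138 components of 2 genes (11.6%), in 36 of 214 components of 3 or 4 genes (16.8%) and in 22 of 84 larger components (26.2%). The 74 components had 2 to 8 genes, with a median of 4. In 64 of them there was 1 raised and 1 lowered member, 6 had 2 raised members and 4 had 2 lowered members.

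The 123 genes of these components that were not members were mostly low, with 81 under 1 CPM on average in *T. chinensis*. Another 27 reached 3 CPM, and 26 of those had an absolute L under 1. The remaining one, TRINITY_DN33681_c1_g2, had an L of 2.46 but overlapping libraries. Members held a median of 99.3% of the CPM of their component in *T. chinensis* and at least 90% in 55 components. The lowest share was 7.31%, in TRINITY_DN34514_c1, where TRINITY_DN34514_c1_g2 averaged 1076 CPM in TC_WD and 997 CPM in TC_C.

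Mean CPM in *T. chinensis* ran from 3.02 to 542 over the members, with a median of 28.1 for raised and 10.9 for lowered members. The median of the raised members' group means was 43.4 CPM in TC_WD and 10.8 CPM in TC_C. For the lowered members it was 5.23 CPM in TC_WD and 20.6 CPM in TC_C. Median L was 1.70 (highest 4.43) for the raised and −1.75 (lowest −3.65) for the lowered members. Nearest to the threshold inside it were TRINITY_DN38945_c0_g1 with an L of 1.01 and TRINITY_DN37020_c2_g2 with −1.01. Just outside lay TRINITY_DN26423_c2_g1 with an L of 0.98 and TRINITY_DN34547_c0_g1 with −0.98, both in components with a gene past the opposite threshold. On the level threshold, TRINITY_DN32334_c1_g2 and TRINITY_DN31784_c5_g2 entered at 3.02 CPM each, whereas TRINITY_DN25460_c1_g1 at 2.96 CPM and TRINITY_DN32753_c1_g3 at 2.83 CPM did not.

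In the *T. ramosissima* plants the members kept their *T. chinensis* direction in most cases, with smaller differences. L was above 0 for 72 of the 80 raised members, below 0 for 7 and 0 for 1, and it was below 0 for 66 of the 78 lowered members and above 0 for 12. Median L was 0.79 for raised and −0.88 for lowered members. The median of the raised members' group means was 17.9 CPM in TR_WD and 9.47 CPM in TR_C, and that of the lowered members was 9.33 CPM in TR_WD and 21.3 CPM in TR_C. Absolute L was smaller in *T. ramosissima* for 142 of the 158 members, a comparison that favours *T. chinensis* because the rule asked for large values there. The controls of the species were close, with mean CPM within a factor of 2 for 147 members. For 125 members the TR_WD mean lay between the TC_C and TC_WD means.

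Every TR_WD library lay above every TR_C library for 41 of 80 raised members (51.3%) and for none below. Over the 29025 genes that exceeded 1 CPM in 2 or more *T. ramosissima* libraries, 12.4% were separated in that direction. Among the lowered members, 41 of 78 (52.6%) had every TR_WD library below every TR_C library, against 15.1% of all genes, and 2 were separated the other way, against the 12.4% of all genes above. The 4477 other genes past the same *T. chinensis* thresholds gave similar shares. Of the 1871 other raised genes, 90.3% had an L above 0 in *T. ramosissima* and 47.4% were separated, with a median L of 0.85. Of the 2606 other lowered genes, 88.5% had an L below 0 and 53.2% were separated, with a median L of −0.70.

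Differential expression of TR_WD against TR_C was tested by edgeR's quasi-likelihood test over all 29025 genes, which held 156 members. The raised TRINITY_DN33681_c1_g5 and TRINITY_DN35629_c1_g4 did not reach the CPM filter. Of those that did, the raised TRINITY_DN28021_c1_g3 passed through TR_WD libraries alone and the lowered TRINITY_DN35390_c2_g5 through TR_C libraries alone, so that either had to differ in order to be tested. At an adjusted p of at most 0.05, 10 of 78 raised members (12.8%) rose, where 1.65% of all genes did, and 10 of 78 lowered members (12.8%) fell, where 2.39% of all genes did. Without these 2 genes, both of which were called, a count added after the data were seen, 9 of 77 raised members (11.7%) rose and 9 of 77 lowered members (11.7%) fell, against 1.56% and 2.12% of the 27544 genes above 1 CPM in at least 1 library of each treatment. Among the other genes past the *T. chinensis* thresholds the shares were 14.8% of 1808 raised and 14.7% of 2597 lowered genes. No member was called in the opposite direction, with 0 raised and 1 lowered member at an unadjusted p under 0.05 in that direction, and 1 such call by DESeq2. At an unadjusted p under 0.05, 43 raised members were higher and 38 lowered members lower. The 20 calls rested on few plants, and were 1, 8 and 0 without TR_C replicates 1, 2 and 3 and 4 without TR_WD replicate 3. Calls over all genes in these smaller fits are not given here, so whether the loss was particular to members was not tested. The p-values set the difference between treatments against the spread between plants.

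To follow the genes of a component against each other, the log2 ratio of the summed raised to the summed lowered CPM of a component, each plus 1, was taken in every library. Its mean was higher in TR_WD than in TR_C in 73 of 74 components, by a median of 1.66 (from −0.12 to 4.76). In *T. chinensis* the median difference was 3.45 (from 2.20 to 6.39). There the rule fixed its sign and asked for a large L on both sides, so that the comparison favours *T. chinensis*. All 3 TR_WD ratios lay above all 3 TR_C ratios in 44 components (59.5%) and below them in 0, while the libraries of 30 components overlapped. Of 4604 pairs of genes from 1 component with at least 3 CPM each in *T. ramosissima*, 26.2% had separated ratios, counting both directions. These pairs were not chosen for opposite responses in *T. chinensis*. Other genes past those thresholds mostly kept their direction too (90.3% of raised and 88.5% of lowered genes). Pairs of such genes from different components were not compared, so whether the ratios are particular to partner genes was not tested. Among the 62 components with both sides at 3 CPM or more there, 38 (61.3%) were separated. The exact permutation test of 3 against 3 plants gave its smallest two-sided p, 0.10, in each of the 44, so that no single component can pass 0.05 by this test.

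**Figure D1:**
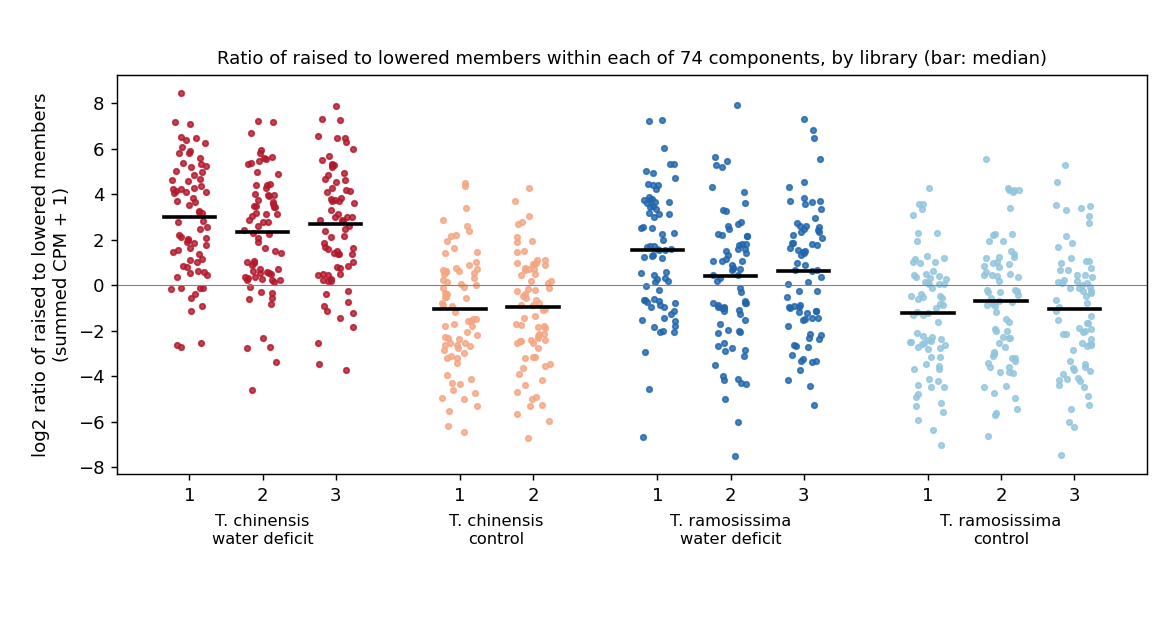
Log2 ratio of raised to lowered members (summed CPM plus 1) in each library, with 1 point per component and a bar at the median of the 74 components. The medians lie between 2.36 and 3.00 in TC_WD and are −1.04 and −0.96 in TC_C, and they lie between 0.39 and 1.57 in TR_WD and between −1.20 and −0.70 in TR_C.

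The median ratio over the components was 3.00, 2.36 and 2.71 in TC_WD replicates 1, 2 and 3 and −1.04 and −0.96 in the TC_C plants. It was 1.57, 0.39 and 0.65 in TR_WD replicates 1, 2 and 3 and −1.20, −0.70 and −1.04 in the TR_C plants. TR_WD replicate 1 stood apart from the other WD plants of its species. Its ratio was the highest of the 3 in 55 components and lay above all TR_C plants in 69, against 49 for replicate 2 and 58 for replicate 3. Without replicate 1, the mean ratio was higher in TR_WD in 65 components and separated in 45, and 128 of the 158 members instead of 138 kept their direction. Leaving out a library cannot undo a separation, so the count of 45 could not fall below that of all plants. It does not test whether separation rested on replicate 1.

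**Figure D2:**
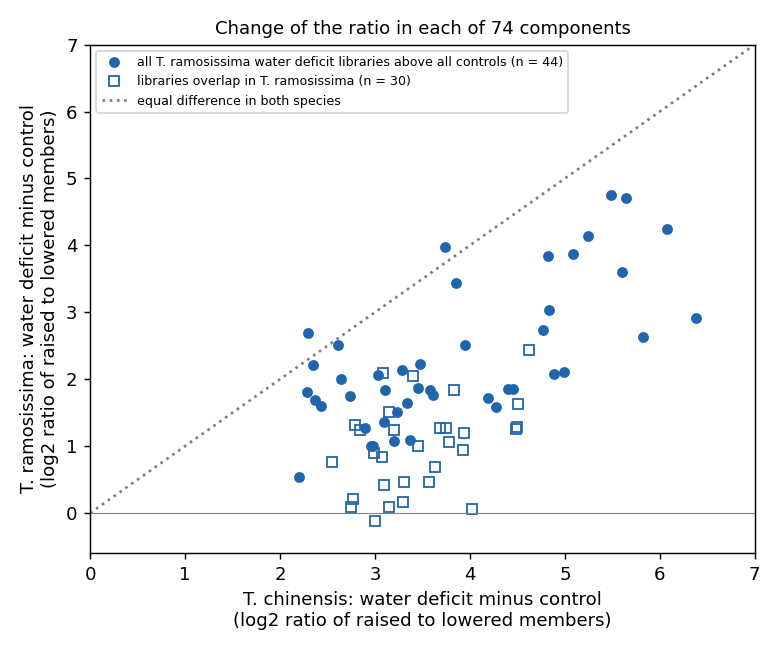
Difference of the mean log2 ratio, WD minus control, in *T. chinensis* (horizontal axis) and *T. ramosissima* (vertical axis), with 1 point per component and filled points where all TR_WD plants lay above all TR_C plants. All but 2 points lie under the dotted line of equal difference, and 1 lies below 0 on the vertical axis.

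The difference of the ratio was larger in *T. ramosissima* in 2 components, TRINITY_DN34514_c1 (3.98 against 3.74 in *T. chinensis*) and TRINITY_DN34745_c1 (2.69 against 2.29). The rule favoured large differences in *T. chinensis* here too. Counting members of a component together, all of them kept their direction in 54 components, the raised side alone in 12 and the lowered side alone in 8. All members were separated in the *T. chinensis* direction in 16 components, the raised side alone in 19, the lowered side alone in 21 and neither side fully in 18.

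Both sides were called in *T. ramosissima* in 3 components. In TRINITY_DN32050_c1, a component of 5 genes, the raised TRINITY_DN32050_c1_g5 had 103, 40.6 and 69.1 CPM in TC_WD against 7.77 and 4.73 CPM in TC_C, and 29.0, 14.5 and 23.3 CPM in TR_WD against 3.64, 3.31 and 5.98 CPM in TR_C. Its lowered partner TRINITY_DN32050_c1_g2 had 4.98, 0.382 and 2.62 CPM in TC_WD against 24.7 and 17.9 CPM in TC_C, and 4.17, 3.39 and 6.21 CPM in TR_WD against 26.5, 16.4 and 27.7 CPM in TR_C. The WD and control plants overlapped for neither gene in either species, and the pair changed places, since the fragments of g5 made up 82.5% of the members' CPM in TR_WD and 15.5% in TR_C. In *T. ramosissima* g5 rose (log2 fold change 2.35, SE 0.34, adjusted p = 0.0192 by edgeR's quasi-likelihood test) and g2 fell (log2 fold change −2.41, SE 0.36, adjusted p = 0.0204 by the same edgeR test).

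TRINITY_DN36070_c0 held 2 raised members and 1 lowered member. TRINITY_DN36070_c0_g3 had 141, 24.7 and 118 CPM in TC_WD against 10.8 and 13.2 CPM in TC_C, and 68.4, 33.6 and 47.0 CPM in TR_WD against 5.71, 10.6 and 11.9 CPM in TR_C. The lower TRINITY_DN36070_c0_g1 had 29.2, 4.05 and 32.9 CPM in TC_WD against 2.17 and 1.02 CPM in TC_C, and 1.36, 4.01 and 5.70 CPM in TR_WD against 0.928, 1.19 and 0.530 CPM in TR_C. The lowered TRINITY_DN36070_c0_g2 had 3.22, 0.917 and 2.35 CPM in TC_WD against 14.2 and 16.3 CPM in TC_C, and 4.25, 7.13 and 3.52 CPM in TR_WD against 17.7, 14.6 and 17.3 CPM in TR_C. TC_WD replicate 2 was the lowest of its group for all 3 genes, and none of them overlapped with the controls in either species. By edgeR's quasi-likelihood test in *T. ramosissima*, g3 rose (log2 fold change 2.41, SE 0.30, adjusted p = 0.0148), g2 fell (log2 fold change −1.74, SE 0.38, adjusted p = 0.0499), and g1 missed the threshold (log2 fold change 2.05, SE 0.63, adjusted p = 0.119).

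The third of these components was TRINITY_DN34745_c1. TRINITY_DN34745_c1_g1 had 6.83, 9.83 and 3.07 CPM in TC_WD against 2.71 and 2.30 CPM in TC_C, and 3.85, 4.19 and 5.28 CPM in TR_WD against 1.21, 1.44 and 1.59 CPM in TR_C. TRINITY_DN34745_c1_g2 had 7.79, 8.33 and 7.86 CPM in TC_WD against 28.2 and 15.5 CPM in TC_C, and 6.41, 10.3 and 11.0 CPM in TR_WD against 27.5, 25.0 and 31.3 CPM in TR_C. TC_WD replicate 3 was close to the controls for g1, whereas TR_WD plants were at least 2 times above any TR_C plant. Here g1 rose (log2 fold change 1.64, SE 0.35, adjusted p = 0.0471, edgeR) and g2 fell (log2 fold change −1.60, SE 0.29, adjusted p = 0.0323, edgeR), and the third gene TRINITY_DN34745_c1_g3, with most of the component's fragments, had an L of 0.91 in *T. chinensis* and 0.39 in *T. ramosissima*.

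**Figure D3:**
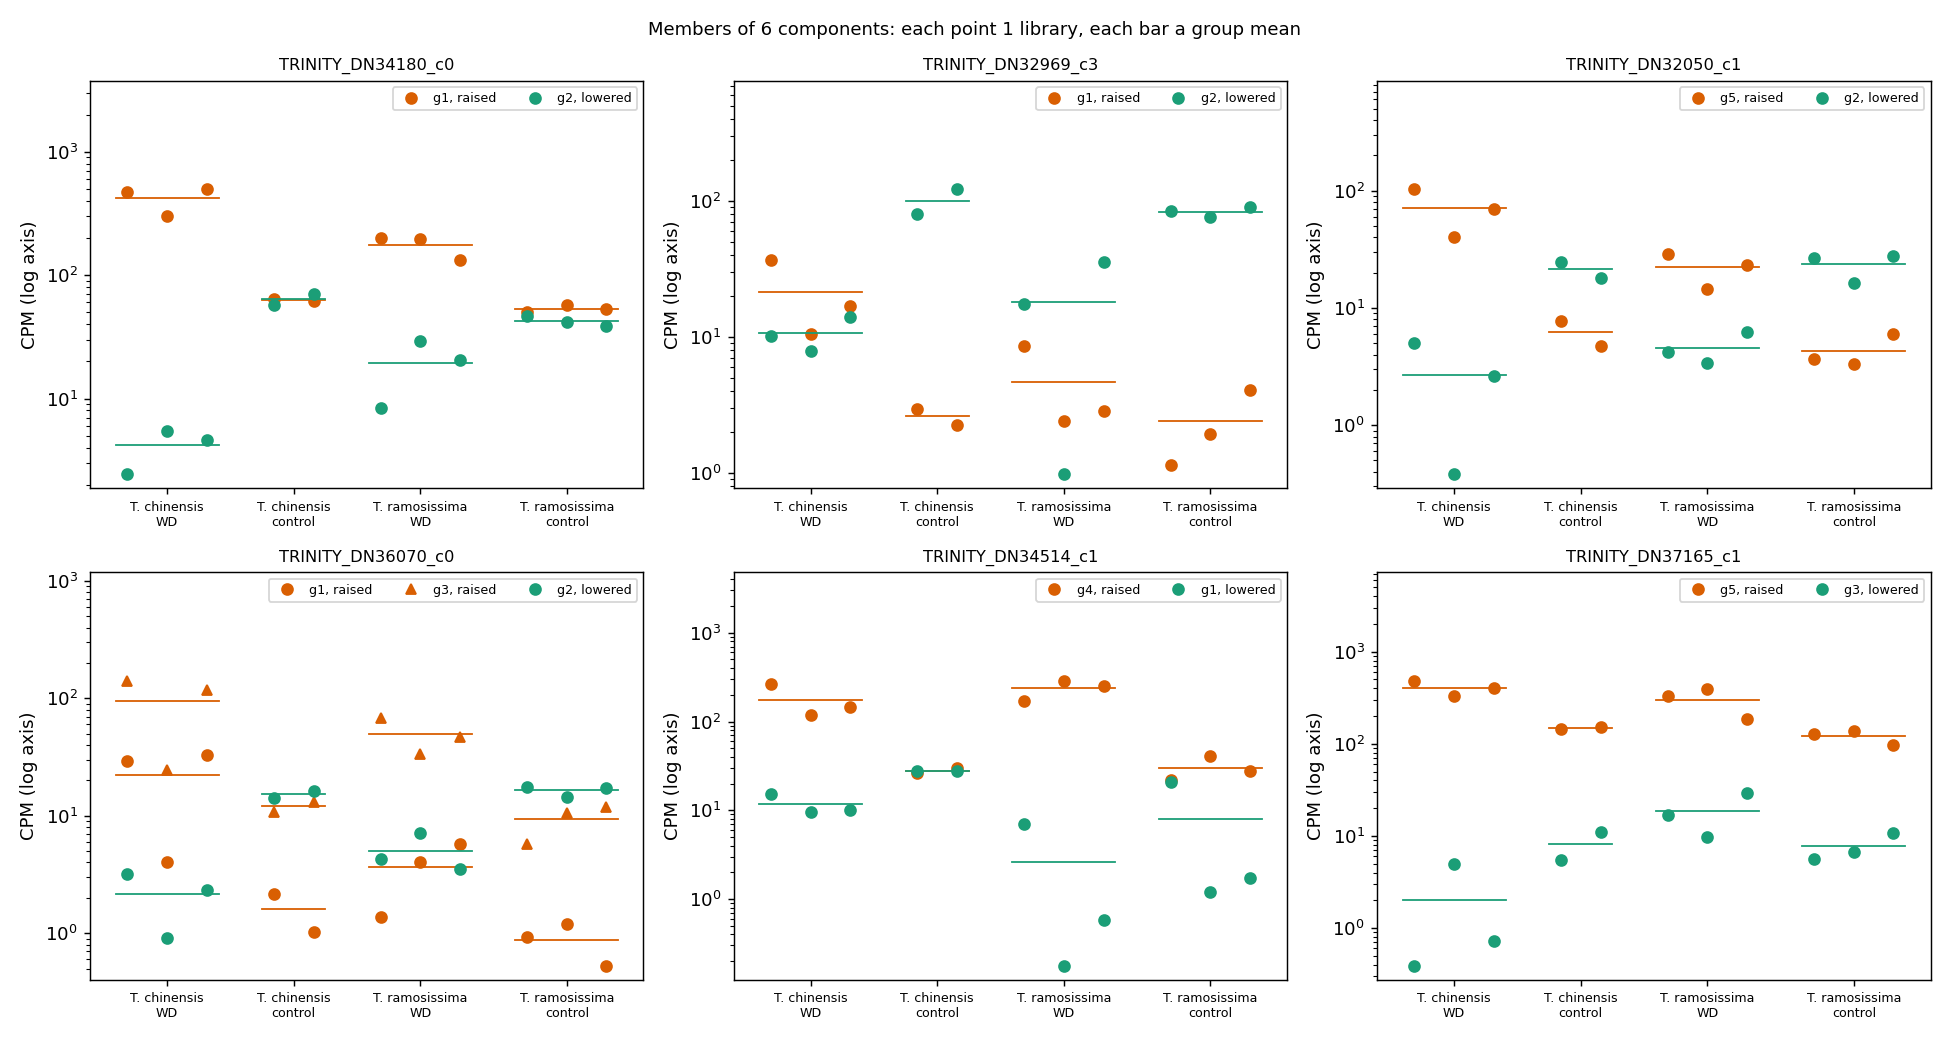
CPM of the members of 6 components on a log axis, with 1 point per library, a bar at each group mean, raised members in orange and lowered members in green. In the upper row and in TRINITY_DN36070_c0 the order of the orange and green means differs between WD and control plants in at least 1 species, while in TRINITY_DN37165_c1 the lowered gene is higher in TR_WD than in TR_C on average.

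In 6 of the 10 components with the strongest opposition in *T. chinensis*, ranked by the weaker of their sides, 1 or both sides were called in *T. ramosissima*. In TRINITY_DN28021_c1 and TRINITY_DN35390_c2 this was through the gene that passed the filter in 1 treatment alone. Over all 74 components, 16 had a called member, and the share over other components of the assembly is not given here. The first of the ranking was TRINITY_DN34180_c0. Its raised TRINITY_DN34180_c0_g1 had 471, 301 and 496 CPM in TC_WD against 63.5 and 61.4 CPM in TC_C, and 198, 197 and 132 CPM in TR_WD against 50.2, 57.5 and 53.1 CPM in TR_C. The lowered TRINITY_DN34180_c0_g2 had 2.44, 5.50 and 4.61 CPM in TC_WD against 57.4 and 69.7 CPM in TC_C, and 8.33, 29.5 and 20.6 CPM in TR_WD against 47.0, 41.9 and 38.8 CPM in TR_C. Of the fragments of both genes, g1 took 98.9% in TC_WD against 49.7% in TC_C, and 89.8% in TR_WD against 55.8% in TR_C. The rise of g1 in *T. ramosissima* was called (log2 fold change 1.71, SE 0.25, adjusted p = 0.0190, edgeR). The difference of g2 was not (log2 fold change −1.13, SE 0.46, adjusted p = 0.213, edgeR), although all TR_WD plants lay below all TR_C plants.

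TRINITY_DN28021_c1 differed by more than any other component in *T. ramosissima*, with a ratio of 0.14, 0.34 and 1.35 in TR_WD against −4.77, −3.61 and −4.06 in TR_C. TRINITY_DN28021_c1_g3 had 6.44, 9.63 and 5.87 CPM in TC_WD against 0.632 and 0.575 CPM in TC_C, and 7.77, 1.96 and 3.27 CPM in TR_WD against 0.0714, 0.509 and 0.379 CPM in TR_C. Its TR_C values were all under 1 CPM, so that it entered the test through its TR_WD libraries alone, and its call (log2 fold change 3.76, SE 0.73, adjusted p = 0.0375, edgeR) cannot be set apart from that filter. TRINITY_DN28021_c1_g1 had 0.976, 0.229 and 2.80 CPM in TC_WD against 23.8 and 12.8 CPM in TC_C, and 6.97, 1.34 and 0.671 CPM in TR_WD against 28.2, 17.4 and 22.0 CPM in TR_C. That gene was separated in both species but missed the threshold (log2 fold change −2.98, SE 0.78, adjusted p = 0.0835, edgeR), with a WD plant, replicate 1, several times above the other WD plants.

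In TRINITY_DN31784_c5 there were 2 lowered members. TRINITY_DN31784_c5_g3 had 4.20, 2.06 and 6.69 CPM in TC_WD against 51.8 and 52.3 CPM in TC_C, and 11.1, 12.4 and 7.55 CPM in TR_WD against 67.6, 55.5 and 78.4 CPM in TR_C, and it fell in *T. ramosissima* (log2 fold change −2.71, SE 0.30, adjusted p = 0.0128, edgeR). TRINITY_DN31784_c5_g1 had 2.64, 3.74 and 4.52 CPM in TC_WD against 10.4 and 6.39 CPM in TC_C, and 0.801, 3.48 and 1.26 CPM in TR_WD against 9.06, 5.60 and 11.3 CPM in TR_C. The raised TRINITY_DN31784_c5_g2 had 4.39, 4.43 and 5.42 CPM in TC_WD against 0.361 and 0.511 CPM in TC_C, and 3.85, 1.69 and 3.19 CPM in TR_WD against 0.285, 0.254 and 1.36 CPM in TR_C. Both were separated in *T. ramosissima* without passing the threshold (edgeR adjusted p = 0.101 for g1 and 0.129 for g2). The raised side stayed small, at 38.3% of the members' fragments in TC_WD and 20.2% in TR_WD, against under 1% in either control.

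TRINITY_DN35390_c2 was a component in which a gene was listed at 0 in whole groups. The raised TRINITY_DN35390_c2_g3 had 5.22, 9.78 and 6.66 CPM in TC_WD against 0 and 0 CPM in TC_C, at least 64.3-fold higher when the controls are set to the floor of 3 counts over the group. In *T. ramosissima* it had 7.69, 16.0 and 11.9 CPM in TR_WD against 9.73, 13.9 and 9.34 CPM in TR_C, so that plants of either treatment held it (log2 fold change 0.13, edgeR adjusted p = 0.879). The lowered TRINITY_DN35390_c2_g5 had 2.49, 0 and 5.72 CPM in TC_WD against 18.7 and 19.8 CPM in TC_C, and 0, 0 and 0 CPM in TR_WD against 4.26, 6.49 and 4.22 CPM in TR_C. It was at least 59.2-fold lower in TR_WD against the same floor of 3 counts over the group. It was called (edgeR adjusted p = 0.0146), but it entered the test through its TR_C libraries alone. The *T. ramosissima* libraries overlapped for the raised gene. Counts of either gene were not whole numbers in 5 of the 11 libraries, as happens where RSEM shares out fragments.

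The other 4 of the 10 strongest components had no call in *T. ramosissima*. In TRINITY_DN32969_c3, TRINITY_DN32969_c3_g1 had 37.2, 10.5 and 16.9 CPM in TC_WD against 2.98 and 2.24 CPM in TC_C, and 8.65, 2.41 and 2.85 CPM in TR_WD against 1.14, 1.95 and 4.09 CPM in TR_C. TRINITY_DN32969_c3_g2 had 10.2, 7.87 and 14.0 CPM in TC_WD against 79.9 and 122 CPM in TC_C, and 17.6, 0.980 and 35.7 CPM in TR_WD against 84.4, 77.1 and 90.1 CPM in TR_C. For g2 every WD plant was below every control in both species, but TR_WD replicate 2 was far below the others (edgeR adjusted p = 0.192). For g1 the TR_C plant with the highest value exceeded 2 of the TR_WD plants (edgeR adjusted p = 0.426).

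TRINITY_DN38523_c3 contained the member with the largest L, 4.43. This gene, TRINITY_DN38523_c3_g1, had 25.9, 3.74 and 102 CPM in TC_WD against 1.35 and 0.830 CPM in TC_C, and 9.86, 2.14 and 7.05 CPM in TR_WD against 1.50, 0.509 and 1.14 CPM in TR_C. TRINITY_DN38523_c3_g2 had 0.586, 2.06 and 2.35 CPM in TC_WD against 10.8 and 9.45 CPM in TC_C, and 1.20, 4.46 and 0.587 CPM in TR_WD against 13.5, 20.3 and 31.1 CPM in TR_C. TC_WD replicate 2 was far below the other TC_WD plants for g1, and both genes were separated in both species. Neither passed the threshold in *T. ramosissima* (log2 fold change 2.49, SE 0.67, adjusted p = 0.0880 for g1 and log2 fold change −3.30, SE 0.73, adjusted p = 0.0522 for g2, edgeR).

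In TRINITY_DN31763_c0 and TRINITY_DN33879_c0 single genes overlapped in *T. ramosissima*. TRINITY_DN31763_c0_g2 had 48.1, 33.5 and 147 CPM in TC_WD against 11.3 and 11.7 CPM in TC_C, and 32.1, 12.1 and 10.2 CPM in TR_WD against 11.1, 12.0 and 13.8 CPM in TR_C, where TR_WD replicate 1 alone was above the controls. TRINITY_DN31763_c0_g3 had 1.76, 1.30 and 1.36 CPM in TC_WD against 15.1 and 13.9 CPM in TC_C, and 9.45, 1.16 and 3.02 CPM in TR_WD against 20.1, 9.07 and 15.1 CPM in TR_C. Here the value of TR_WD replicate 1 was within the range of the controls, and edgeR's adjusted p was 0.518 for g2 and 0.198 for g3. The ratio of the component was separated, at 1.66, 2.60 and 1.48 in TR_WD against −0.81, 0.36 and −0.13 in TR_C. The 2 raised members of TRINITY_DN33879_c0 were separated in *T. ramosissima*. TRINITY_DN33879_c0_g1 had 125, 21.1 and 36.1 CPM in TR_WD against 7.14, 12.0 and 8.93 CPM in TR_C (edgeR adjusted p = 0.0565), and TRINITY_DN33879_c0_g3 had 45.3, 8.47 and 14.5 CPM in TR_WD against 1.86, 6.44 and 2.35 CPM in TR_C (edgeR adjusted p = 0.0760). The lowered TRINITY_DN33879_c0_g6, with 6.64, 3.52 and 4.16 CPM in TC_WD against 16.0 and 26.1 CPM in TC_C, had 3.20, 17.8 and 8.22 CPM in TR_WD against 12.7, 4.07 and 13.6 CPM in TR_C. Its *T. ramosissima* plants overlapped fully, with a log2 fold change of −0.07.

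Of the components outside these 10, the 6 with the largest separated ratio differences in *T. ramosissima* differed by 2.69 to 4.13. TRINITY_DN34514_c1 was among them, and its raised TRINITY_DN34514_c1_g4 had an adjusted p that no other gene tested went below. That gene had 267, 119 and 145 CPM in TC_WD against 26.3 and 29.6 CPM in TC_C, and 169, 288 and 251 CPM in TR_WD against 21.8, 40.8 and 28.0 CPM in TR_C (log2 fold change 3.00, SE 0.31, adjusted p = 0.0117, edgeR). Its lowered partner TRINITY_DN34514_c1_g1 had 15.3, 9.55 and 10.1 CPM in TC_WD against 27.7 and 27.5 CPM in TC_C, and 7.05, 0.178 and 0.587 CPM in TR_WD against 20.8, 1.19 and 1.74 CPM in TR_C. TR_C replicate 1 was far above the other controls for g1, the treatments overlapped, and the difference was not called (edgeR adjusted p = 0.530). The ratio of this component was separated in *T. ramosissima*, at 4.40, 7.94 and 7.31 in TR_WD against 0.06, 4.26 and 3.40 in TR_C.

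TRINITY_DN30122_c0 and TRINITY_DN35366_c0 each had 1 called side. TRINITY_DN30122_c0_g2 had 213, 166 and 234 CPM in TC_WD against 25.8 and 20.7 CPM in TC_C, and 104, 70.9 and 56.5 CPM in TR_WD against 12.8, 32.6 and 19.2 CPM in TR_C (log2 fold change 1.87, SE 0.33, adjusted p = 0.0300, edgeR). TRINITY_DN30122_c0_g1 had 2.83, 2.83 and 5.42 CPM in TC_WD against 16.9 and 12.3 CPM in TC_C, and 3.85, 6.24 and 4.61 CPM in TR_WD against 9.92, 13.4 and 13.8 CPM in TR_C (log2 fold change −1.31, SE 0.30, adjusted p = 0.0597, edgeR). Treatments were separated for both genes in both species. TRINITY_DN35366_c0_g1, the lowered member of TRINITY_DN35366_c0, had 2.34, 1.99 and 3.43 CPM in TC_WD against 21.9 and 13.5 CPM in TC_C, and 7.05, 4.54 and 3.86 CPM in TR_WD against 18.7, 18.8 and 25.7 CPM in TR_C, and it fell in *T. ramosissima* (log2 fold change −2.04, SE 0.30, adjusted p = 0.0199, edgeR). TRINITY_DN35366_c0_g3 had 61.0, 15.1 and 34.1 CPM in TC_WD against 9.03 and 12.5 CPM in TC_C, and 46.3, 23.9 and 19.3 CPM in TR_WD against 9.78, 10.3 and 6.28 CPM in TR_C (log2 fold change 1.72, SE 0.39, adjusted p = 0.0566, edgeR). Again all WD plants lay on 1 side of all controls for both genes.

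The remaining pair of this set had a variable side. In TRINITY_DN37229_c0 the lowered TRINITY_DN37229_c0_g2 had 0.978, 0.382 and 0.181 CPM in TC_WD against 18.9 and 16.1 CPM in TC_C, and 0.641, 12.4 and 4.61 CPM in TR_WD against 20.6, 16.3 and 26.1 CPM in TR_C. The raised TRINITY_DN37229_c0_g1 had 174, 85.3 and 188 CPM in TC_WD against 61.7 and 65.8 CPM in TC_C, and 106, 92.3 and 80.1 CPM in TR_WD against 51.5, 66.4 and 62.2 CPM in TR_C. Both were separated in *T. ramosissima* and not called (edgeR adjusted p = 0.268 for g2 and 0.107 for g1). In TRINITY_DN28771_c2 the lowered TRINITY_DN28771_c2_g2 had 0.488, 5.81 and 18.9 CPM in TC_WD against 76.6 and 78.4 CPM in TC_C, and 9.94, 78.2 and 9.65 CPM in TR_WD against 90.8, 97.8 and 248 CPM in TR_C. TRINITY_DN28771_c2_g1 had 5.53, 8.98 and 4.61 CPM in TC_WD against 1.42 and 1.64 CPM in TC_C, and 24.2, 3.60 and 3.86 CPM in TR_WD against 0.929, 1.31 and 4.74 CPM in TR_C. TR_WD replicate 2 was near the controls for g2 and TR_WD replicate 1 far above the rest for g1, and counts of g1 were not whole numbers in any of the 11 libraries.

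The 3 components whose members took the most fragments in *T. chinensis*, apart from those above, each had a dominant gene. TRINITY_DN37102_c1_g1 averaged 754 ± 149 CPM in TC_WD (SD, n = 3) against 225 ± 121 CPM in TC_C (SD, n = 2), and 1127 ± 276 CPM in TR_WD (SD, n = 3) against 687 ± 212 CPM in TR_C (SD, n = 3). Its lowered partner TRINITY_DN37102_c1_g2 averaged 12.7 ± 3.77 CPM in TC_WD (SD, n = 3) against 45.0 ± 4.07 CPM in TC_C (SD, n = 2), and 16.5 ± 7.81 CPM in TR_WD (SD, n = 3) against 33.0 ± 9.54 CPM in TR_C (SD, n = 3). Neither passed the test in *T. ramosissima* (edgeR adjusted p = 0.242 for g1 and 0.257 for g2), and treatments overlapped for both. Counts of g1 were not whole numbers in 7 libraries.

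In TRINITY_DN35711_c1 the dominant gene was the lowered one. TRINITY_DN35711_c1_g1 had 158, 597 and 177 CPM in TC_WD against 821 and 696 CPM in TC_C, and 1060.1, 777 and 194 CPM in TR_WD against 1160.2, 808 and 1169 CPM in TR_C, with TC_WD replicate 2 the nearest to the controls and TR_WD replicate 3 far below the other TR_WD plants. The raised TRINITY_DN35711_c1_g2 had 26.8, 23.5 and 15.3 CPM in TC_WD against 10.2 and 10.3 CPM in TC_C, and 9.53, 11.2 and 18.0 CPM in TR_WD against 13.1, 14.7 and 14.5 CPM in TR_C. The *T. ramosissima* treatments overlapped for both genes (edgeR adjusted p = 0.588 for g1 and 0.831 for g2).

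TRINITY_DN37165_c1_g5 was separated in both species, with 485, 332 and 405 CPM in TC_WD against 144 and 154 CPM in TC_C, and 331, 389 and 187 CPM in TR_WD against 127, 139 and 95.9 CPM in TR_C (log2 fold change 1.32, SE 0.36, adjusted p = 0.0888, edgeR). Its partner TRINITY_DN37165_c1_g3 was lower in TC_WD plants, with 0.390, 4.97 and 0.723 CPM in TC_WD against 5.51 and 10.9 CPM in TC_C. In *T. ramosissima* it had 16.9, 9.62 and 29.5 CPM in TR_WD against 5.57, 6.70 and 10.8 CPM in TR_C, so that the mean was higher in TR_WD, with 1 TR_WD plant within the range of the controls (log2 fold change 1.27, SE 0.41, adjusted p = 0.134, edgeR). Here the partners were opposed in *T. chinensis* and had the same sign in *T. ramosissima*.

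Among the components with 3 members, 4 more were described by the rule. TRINITY_DN39370_c1 had 2 raised members that were separated in both species. TRINITY_DN39370_c1_g1 averaged 40.1 ± 32.2 CPM in TR_WD (SD, n = 3) against 9.54 ± 3.33 CPM in TR_C (SD, n = 3), and TRINITY_DN39370_c1_g2 averaged 9.32 ± 5.61 CPM in TR_WD (SD, n = 3) against 2.35 ± 0.704 CPM in TR_C (SD, n = 3) (edgeR adjusted p = 0.0830 for g1 and 0.0639 for g2). The lowered TRINITY_DN39370_c1_g3 averaged 3.39 ± 1.49 CPM in TC_WD (SD, n = 3) against 9.14 ± 0.736 CPM in TC_C (SD, n = 2) and 7.56 ± 1.62 CPM in TR_WD (SD, n = 3) against 11.1 ± 2.88 CPM in TR_C (SD, n = 3), with overlap in *T. ramosissima*. In the 8-gene TRINITY_DN35171_c0, the lowered TRINITY_DN35171_c0_g3 averaged 48.8 ± 18.5 CPM in TC_WD (SD, n = 3) against 426 ± 75.8 CPM in TC_C (SD, n = 2) and 196 ± 88.2 CPM in TR_WD (SD, n = 3) against 362 ± 25.5 CPM in TR_C (SD, n = 3), separated in both species. The other lowered member TRINITY_DN35171_c0_g4 had 0 CPM in 1 plant of each *T. ramosissima* treatment, and the raised TRINITY_DN35171_c0_g2 averaged 57.2 ± 6.72 CPM in TR_WD (SD, n = 3) against 32.5 ± 9.07 CPM in TR_C (SD, n = 3). Counts of all 3 were not whole numbers in 9 libraries.

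TRINITY_DN40078_c2 and TRINITY_DN29912_c1 had smaller differences in *T. ramosissima*, with no call. The raised TRINITY_DN40078_c2_g2 averaged 119 ± 13.2 CPM in TC_WD (SD, n = 3) against 53.8 ± 0.713 CPM in TC_C (SD, n = 2), and 55.0 ± 12.1 CPM in TR_WD (SD, n = 3) against 37.8 ± 2.87 CPM in TR_C (SD, n = 3). All 3 members of TRINITY_DN40078_c2 were separated in both species, with L between −0.46 and 0.61 in *T. ramosissima*. In TRINITY_DN29912_c1, L of the raised members g1 and g3 was 1.46 and 1.18 in *T. chinensis* and 0.40 for each in *T. ramosissima*. The lowered TRINITY_DN29912_c1_g4 had 2.72, 10.7 and 4.95 CPM in TR_WD against 21.8, 8.39 and 6.97 CPM in TR_C, which overlapped.

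Outside the components named by the rule, 7 members were called in *T. ramosissima*, and these were picked out after their values were seen. The raised TRINITY_DN29214_c0_g2, TRINITY_DN35108_c3_g1 and TRINITY_DN39445_c0_g4 rose by a log2 fold change of 1.95, 1.31 and 1.001 (edgeR adjusted p = 0.0413, 0.0249 and 0.0365). The lowered TRINITY_DN26295_c2_g1 and TRINITY_DN37410_c0_g2 had log2 fold changes of −2.44 and −2.54 (edgeR adjusted p = 0.0369 and 0.0221). Both lowered members of TRINITY_DN37743_c4 fell. TRINITY_DN37743_c4_g2 had 0.878, 0.535 and 2.08 CPM in TC_WD against 20.7 and 17.1 CPM in TC_C, and 3.61, 3.39 and 2.26 CPM in TR_WD against 22.8, 16.4 and 21.6 CPM in TR_C (log2 fold change −2.74, SE 0.34, adjusted p = 0.0146, edgeR), and TRINITY_DN37743_c4_g3 was close to it throughout. Their raised partner TRINITY_DN37743_c4_g1 had an L of −0.67 in *T. ramosissima*, with overlapping plants.

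Of the 12 lowered members with an L above 0 in *T. ramosissima*, 2 were separated in that direction, again picked out after their values were seen. TRINITY_DN31491_c0_g1 had 4.88, 2.06 and 2.53 CPM in TC_WD against 13.0 and 10.9 CPM in TC_C, and 12.7, 15.2 and 13.8 CPM in TR_WD against 11.8, 11.7 and 12.6 CPM in TR_C. The *T. ramosissima* plants differed little (log2 fold change 0.20, SE 0.24, adjusted p = 0.699, edgeR), and this was the component with the ratio difference below 0. TRINITY_DN37389_c0_g2 had 1.56, 1.76 and 1.45 CPM in TC_WD against 5.33 and 6.39 CPM in TC_C, and 6.41, 8.82 and 6.38 CPM in TR_WD against 1.86, 4.15 and 5.83 CPM in TR_C (log2 fold change 0.92, SE 0.41, adjusted p = 0.253, edgeR). In that component the raised TRINITY_DN37389_c0_g3 was higher in WD plants of both species, so that the partners had opposite signs in *T. chinensis* and the same sign in *T. ramosissima*.

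Of the 8 raised members without an L above 0 in *T. ramosissima*, TRINITY_DN33681_c1_g5 was listed at 0 in all 6 plants of that species, while it had 33.2, 16.8 and 35.9 CPM in TC_WD against 14.6 and 8.44 CPM in TC_C. The lowest L among the other 7 was −0.67, in TRINITY_DN37743_c4_g1, and none of the 7 was separated. In TRINITY_DN40015_c0 single plants carried the values. TRINITY_DN40015_c0_g1 had 9.86, 1.41 and 0.503 CPM in TR_WD against 0, 1.87 and 0.0757 CPM in TR_C, and TRINITY_DN40015_c0_g2 had 0, 8.56 and 5.62 CPM in TR_WD against 4.57, 0 and 0 CPM in TR_C. Each gene was at 0 in at least 1 TR_C plant, and the difference of the ratio was 0.06 against 4.02 in *T. chinensis*.

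The side of a component that gave most of the members' fragments differed between treatments in some components and not in others. This share counts fragments and not transcripts, and the genes of a component differed in length. It was taken in each library and then averaged over the group. The median share of the raised side was 86.1% in TC_WD and 34.8% in TC_C, and 64.7% in TR_WD and 35.5% in TR_C. In *T. chinensis* the raised side lay above 50% in TC_WD and below it in TC_C in 38 components, above 50% in both in 26 and below it in both in 10. In *T. ramosissima* these numbers were 15, 26 and 32, and 11 of the 38 components also changed sides there. The rule asked for large differences in *T. chinensis* alone, which favours a change of sides in that species. TRINITY_DN40015_c0 was the remaining one, at 40.8% in TR_WD and 66.7% in TR_C. Its means came from shares of 100%, 14.1% and 8.22% in the TR_WD plants and 0%, 100% and 100% in the TR_C plants. With genes at 0 CPM in single plants, they do not show a change of sides.

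**Figure D4:**
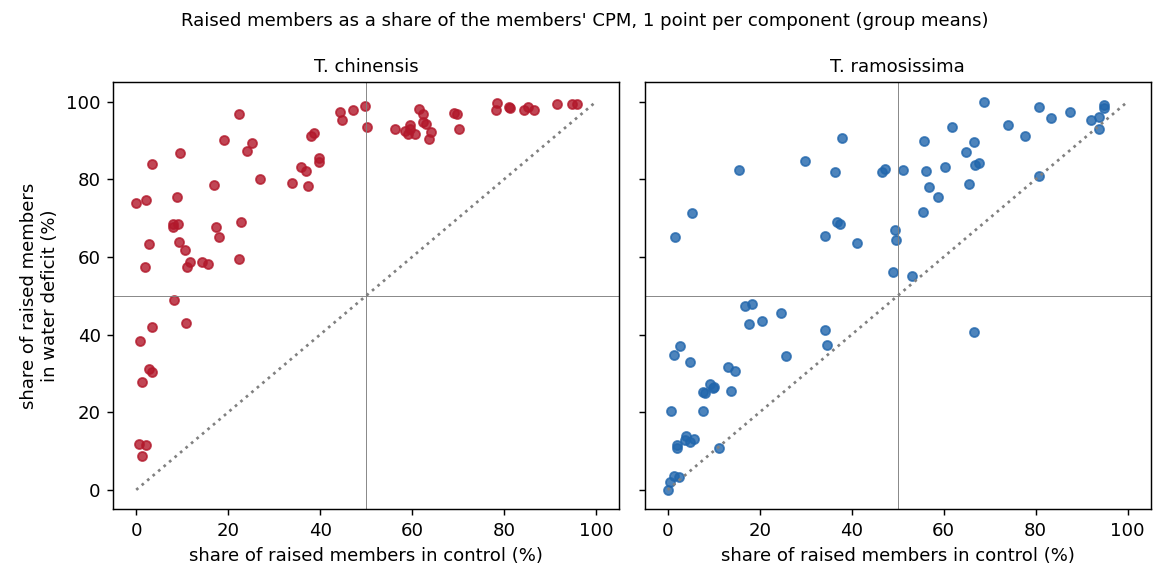
Raised members as a percentage of the CPM of all members of a component, in WD (vertical axis) against control plants (horizontal axis), for *T. chinensis* (left) and *T. ramosissima* (right). Each component is 1 point, the group mean of its library percentages, and solid lines lie at 50%. The upper left part, where the raised side is the larger one in WD plants alone, holds 38 components in *T. chinensis* and 15 in *T. ramosissima*.

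The sum of all genes of a component, members or not, differed less between treatments than its members did in many cases. In *T. chinensis* this largely follows from the rule, which asked for genes of opposite sign in each component. In *T. chinensis* it had an L between −1 and 1 in 38 of the 74 components, of at least 1 in 25 and of at most −1 in 11, with a median of 0.39 (from −2.34 to 2.43). The CPM gained by raised members was within a factor of 2 of the CPM lost by lowered members in 15 components, at least 2 times the loss in 36, and the loss was at least 2 times the gain in 23. In *T. ramosissima* the sum lay between −1 and 1 in 57 components, at 1 or more in 9 and at −1 or less in 8, with a median of −0.09. Members were chosen for large differences in *T. chinensis*, so the sums of the species are not on equal terms.

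The sums were tested in *T. ramosissima* by edgeR's quasi-likelihood test over 21826 components. Of the 74, 7 were called (9.46%), where 4.64% of all components were. TRINITY_DN36070_c0 rose by 1.10 on the log2 scale (SE 0.20, edgeR adjusted p = 0.0308), TRINITY_DN30122_c0 by 1.28 (SE 0.27, adjusted p = 0.0426) and TRINITY_DN29214_c0 by 1.06 (SE 0.23, adjusted p = 0.0445). TRINITY_DN31784_c5 fell by 2.36 (SE 0.27, edgeR adjusted p = 0.0110), TRINITY_DN37743_c4 by 2.26 (SE 0.43, adjusted p = 0.0322), TRINITY_DN37410_c0 by 2.10 (SE 0.46, adjusted p = 0.0498) and TRINITY_DN38523_c3 by 1.41 (SE 0.31, adjusted p = 0.0465). Most of the sum of TRINITY_DN37743_c4 came from TRINITY_DN37743_c4_g4, which was not a member, with 21.4 CPM in TR_WD against 95.3 CPM in TR_C. The sum of TRINITY_DN38523_c3 had the opposite sign in *T. chinensis*, with 45.8 CPM in TC_WD against 11.4 CPM in TC_C, and 8.57 CPM in TR_WD against 22.8 CPM in TR_C. The 7 calls became 1, 2 and 0 without TR_C replicates 1, 2 and 3 and 1 without TR_WD replicate 3. Calls over all components in these smaller fits are not given here.

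**Figure D5:**
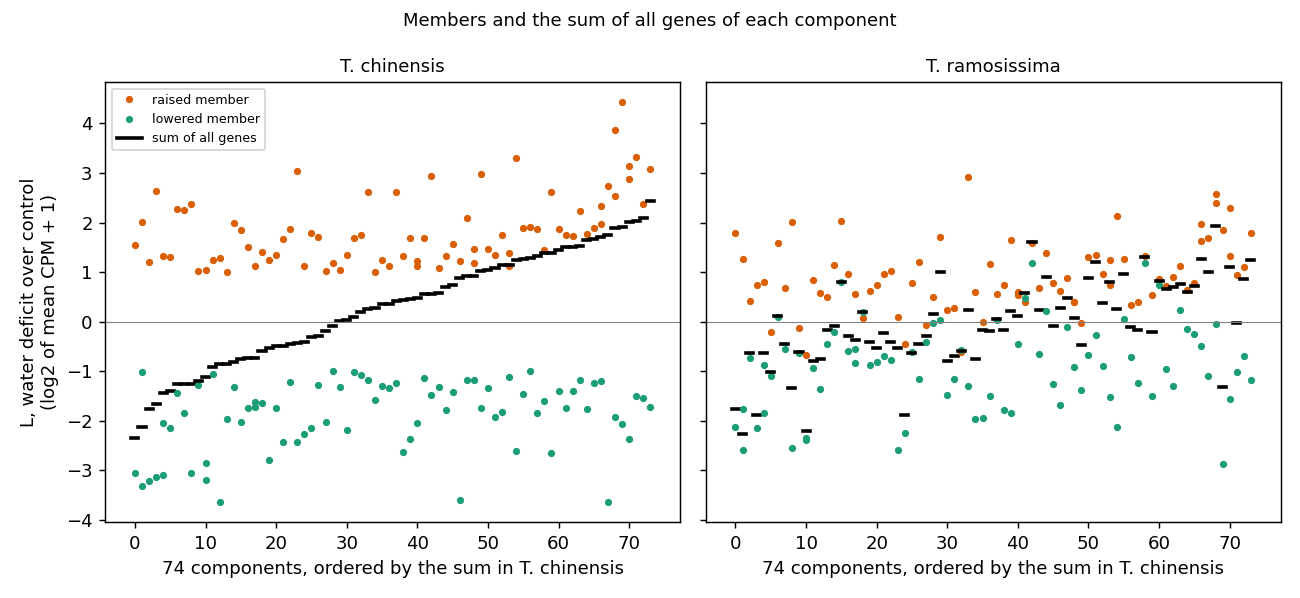
L of raised members (orange), lowered members (green) and the sum of all genes of a component (black bars), in *T. chinensis* (left) and *T. ramosissima* (right), with components ordered by their sum in *T. chinensis*. Members lie beyond 1 and −1 on the left because the rule asked for it, and on the right the sums of 57 components lie between −1 and 1.

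Genes of a component can share fragments. A gene without shared fragments has whole counts, so counts that are not whole show that RSEM divided fragments. They do not say with which gene, which can also belong to another component. Within a tolerance of 0.005, 45 members (28.5%) had a count that was not whole in at least 1 library, against 30.6% of the 13274 genes at 3 CPM or more in components of several genes. Counts were not whole in every library for 3 members (1.90%), against 5.17% of those genes. Both sides had such counts in 7 components and at least 1 side in 37. The ratio was separated in *T. ramosissima* in 22 of these 37 components and in 22 of the 37 whose members had whole counts throughout. Since this split does not show whether partners shared fragments with each other, an effect of such sharing on the ratio was not tested.

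Partner genes also differed in size. Effective length relative to other genes, taken as CPM divided by TPM, ran from 0.106 to 5.66 over the members, with a median of 1.09 for raised and 0.97 for lowered members, against 1.29 for all genes at 3 CPM or more. The raised side was at least 2 times as long in 19 components and the lowered side in 13, and lengths were within a factor of 2 in 42.

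The same rule applied to the *T. ramosissima* libraries gave 17 components with 34 members, out of the same 86595 components. Full separation is harder to reach there, with 3 control libraries against 2 in *T. chinensis*, so the numbers of components were not reached on equal terms. Of these, 6 components were also among the 74, which is 8.11% of the *T. chinensis* and 35.3% of the *T. ramosissima* components. The 12 genes that were members by both rules had the same direction in both species.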

How the data were processed

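Leaf RNA of 11 plants was sequenced with paired-end reads on the Illumina HiSeq platform. Reads were trimmed with Prinseq, a joint reference for both species was assembled with Trinity, and each library was aligned to it with Bowtie and quantified with RSEM (version not given in the sources used here). Processing notes of the submitters name FastQC, RSEM and edgeR. The authors deposited RSEM expected counts for each gene without normalization, and TPM values that the authors obtained from RSEM. A fragment that matches several contigs is divided by RSEM, so near-identical genes of a component can take each other's counts.

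All 11 columns of each table were assigned to a library by name. Counts were rounded and analysed in R 4.3.3 with edgeR 4.0.16 (TMM factors, quasi-likelihood test, Benjamini-Hochberg). Genes had to exceed 1 CPM in 2 or more of the 6 *T. ramosissima* libraries, and the script was tested on simulated data. As alternatives, DESeq2 1.42.0, the exact test of edgeR, limma-voom (limma 3.58.1), other scalings, filters, pseudocounts and thresholds, a replicate block, 1 fit of all groups and each library left out were run. The threshold of 0.05 was taken because earlier results showed no call at 0.005 by the quasi-likelihood test. Members, tests and lists were chosen with earlier results of these data known. Mean CPM in the rule was taken over the 5 *T. chinensis* libraries. Components were named as the 10 with the strongest opposition in *T. chinensis*, then the 6 with the largest separated ratio difference in *T. ramosissima*, up to 4 separated in the opposite direction (of which there were 0), the 3 with the most CPM and 4 with the most members. At these depths 1 CPM is more than 10 fragments. Sequences and annotation of the genes were not used here.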

Additional observations from a re-analysis of the deposited data

Results flagged for a closer look

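For 2 of the 78 lowered members every TR_WD plant lay above every TR_C plant, while every TC_WD plant lay below every TC_C plant. Over all genes tested, 12.4% were separated upward in *T. ramosissima*, and neither gene was called there (edgeR adjusted p = 0.699 for TRINITY_DN31491_c0_g1 and 0.253 for TRINITY_DN37389_c0_g2). The lowered member TRINITY_DN31491_c0_g1 had an L of 0.19 in *T. ramosissima* against −1.64 in *T. chinensis*. The lowered member TRINITY_DN37389_c0_g2 had an L of 0.73 in *T. ramosissima* against −1.41 in *T. chinensis*. The difference between the species was not tested for either gene, and species and day of harvest differ together.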

How the results depend on the processing

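The 20 members called in *T. ramosissima* became 50 by edgeR's exact test, 56 by DESeq2, 68 without a filter on low counts, 32 in 1 fit of all 4 groups and 45 at an adjusted p of 0.10. They became 0 by the quasi-likelihood test at an adjusted p of 0.005 with an absolute log2 fold change of 1. DESeq2 and edgeR's exact test were added at that setting after the data were seen. DESeq2 gave 33, and the count of the exact test is not given here. The authors used edgeR at these thresholds and did report differentially expressed genes in *T. ramosissima*. The 20 calls ran from 0 to 24 with 1 library left out. The 7 called component sums became 21, 22, 22 and 12 under the first 4 of these settings, 19 at an adjusted p of 0.10, 0 at 0.005, 11 with a CPM filter of 5, and 0 to 7 with 1 library left out. With a replicate block, 0 members and 0 sums were called. The labels give plants a replicate number and state no pairing. Same-numbered deviations correlated at −0.164, −0.220 and 0.0984, and differently numbered ones at −0.0754 to 0.239. With 3 plants a group, these values cannot settle whether plants were paired. Limma-voom and other scalings gave 19 to 22 members. DESeq2 and the fit without a filter each called 1 member in the opposite direction. The shares of all genes and components called under the other settings are not given here, so these counts do not set members against other genes. With the 74 components and 158 members held fixed, separated ratios ran from 40 to 55 components over TPM, other pseudocounts, 1 gene per side and 1 *T. ramosissima* library left out, and members that kept their direction from 128 to 141 over TMM-scaled CPM, TPM, a pseudocount of 0.1 and 1 such library left out. Neither was recomputed for members chosen by other thresholds. Leaving out a library can only keep or raise the number of separated ratios, so those counts do not test the separation. The 158 members became 67 at a mean CPM of 10 and 19 at an absolute L of 2, and 152 to 218 under the others. Calls depend on 3 plants a group, and values near 1 CPM carry a large counting error.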
